A study of Mus musculus with 764 samples.

Results

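Among IL-10-producing CD4+ T cells of the mouse small intestine, those with RNA of the integrin gene Itga1 were compared with those without it. The members are the 83 small intestine cells that were chosen by holding at least 1 Itga1 read, among those with at least 160000 reads over genes, and the comparison group is the 92 small intestine cells above the same limit with 0 Itga1 reads. They are called Itga1+ and Itga1- cells here, a name for RNA reads in a cell and not for protein on its surface. Of 764 single cells deposited, 190 were small intestine cells and the remainder were spleen cells. Spleen cells of the same plate (p2) that passed the limit are given beside them as a second tissue.

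All cells were sorted as IL-10+ CD4+ T cells from mice treated with anti-CD3, an antibody that activates T cells through their receptor complex and expands the IL-10-producing ones. The labels give no strain, age or genotype. Per the study's text the mice carried reporters for IL-10 (eGFP) and Foxp3 (mRFP), and in its anti-CD3 model the antibody was given by intraperitoneal injection on alternate days, with organs taken a few hours after the last dose. Cells with Foxp3 were kept in the sequenced set. Intestinal lymphocytes can be taken from the epithelium or from the lamina propria below it, and the labels do not say which of these compartments a cell came from. No untreated animals were sequenced, so nothing here separates the antibody from the tissue.

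Each cell was 1 SMART-seq2 library, in which whole transcripts are copied and reads carry no molecular identifiers. No animal is named, so the cells of a tissue count as 1 sample: differences between groups of cells have no replicate check, no p-value was computed, and intervals are 95% exact binomial (Clopper-Pearson) ones that cover counting error only. The Itga1+ cells held 166040 to 580400 reads (median 326245) and 2266 to 7165 genes (median 3212), the Itga1- cells 165194 to 477566 reads (median 318323) and 2266 to 6137 genes. Small intestine cells filled well columns 13 to 24 of plate p2 and the p2 spleen cells the other columns, so tissue and plate position cannot be told apart.

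Itga1 encodes integrin alpha 1 (CD49a), which pairs with integrin beta 1 into a receptor for collagens, mainly collagen IV of basement membranes. Together with Itgae (CD103), which pairs with integrin beta 7 and binds E-cadherin on epithelial cells, it is a known mark of T cells that stay in a tissue and do not return to the blood. Such resident cells usually carry Cd69, which blocks the egress receptor S1pr1, and many hold granzymes ready to be released.

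The values that chose the members had a median of 83 Itga1 reads, and ran from 2.38 to 1398 CPM (counts per 1000000, a gene's reads divided by all gene reads of the cell and scaled to this total) with a median of 255.4 CPM. Only 4 members lay at the limit with 1 read and 3 had 2 reads, and 13 members had 1 to 9 reads, 37 had 10 to 99 and 33 had 100 or more. On the other side of the limit all 92 Itga1- cells were at 0. With every cell thinned to 160000 reads, 80 of the 83 members kept an Itga1 read. In the p2 spleen 2 cells (1.12%) had a read, so the gene was mostly a small intestine readout in this plate.

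The members made up 47.4% of the small intestine cells (interval 39.8 to 55.1%). Split by depth into 3 sets, the share was 42.4% of the shallowest cells, 44.8% of the middle ones and 55.2% of the deepest. It was 40.9% in well rows A to H, 54.02% in rows I to P, 44.7% in well columns 13 to 18 and 50% in columns 19 to 24. The intervals of these shares overlap, and each well column held 5 to 10 members and each row 2 to 7. Among 15 small intestine cells below the read limit, the deepest of which had 157891 reads, 4 had an Itga1 read.

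The label was checked against defining genes. T cell markers summed to 4035 to 13125 CPM in every member, and Cd4 had a read in all 83 members and all 92 Itga1- cells. Gzma, granzyme A, had a read in all cells of both groups, so a Gzma read does not tell the members apart. At 1000 CPM or more it was found in 79 of 83 members and 55 of 92 Itga1- cells. Itgae had a read in 71 of 83 members and 38 of 92 Itga1- cells. The defining B cell gene Ms4a1, the macrophage gene Lyz2, the mast cell protease genes Mcpt1 and Mcpt2 and the 2 gamma-delta T cell genes that could be matched were at 0 in the members. The summed B and plasma cell markers were at 0 in 69 of 83 members and 85 of 92 Itga1- cells, the epithelial markers in 52 and 57, and the mast cell markers in 78 and 70. The myeloid markers summed to 0 in 42 members and 64 Itga1- cells, and to at most 1008 and 607 CPM. That list was led by Cd68, a lysosomal gene read in 46.99% of members and 30.4% of Itga1- cells, while Csf1r, Emr1 and C1qa had a read in 1 member each, Itgax in 2, and none of these 4 genes in an Itga1- cell. The part of such RNA in the differences below was not tested.

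**Figure D1:**
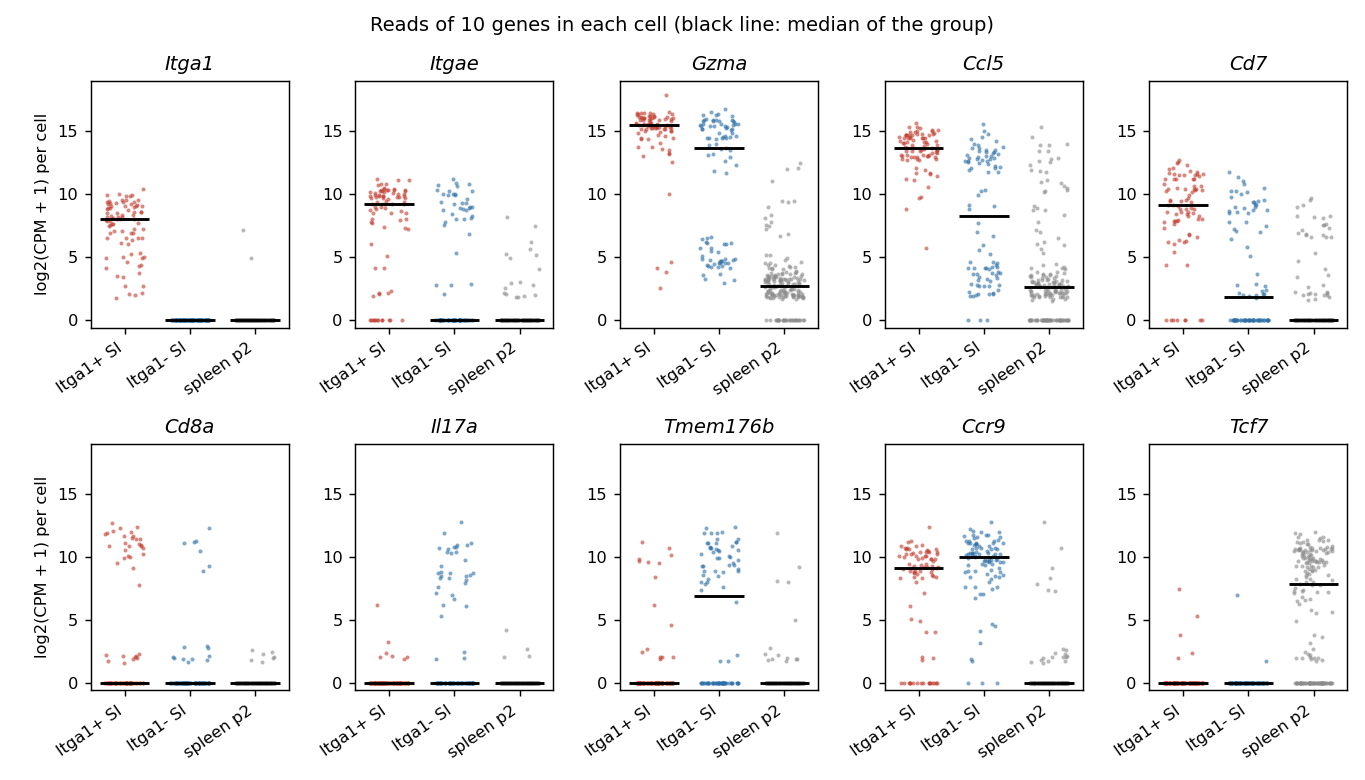
Level of 10 genes in each cell, as log2(CPM + 1), for Itga1+ small intestine cells (red), Itga1- small intestine cells (blue) and p2 spleen cells (grey), with 1 point for each cell and a black line at the group's median. Gzma and Ccl5 form a single high band in nearly all Itga1+ cells and a high and a low band in Itga1- cells, and among small intestine cells the Il17a points above 5 lie almost all in the Itga1- cells.

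Over all genes, 5883 were tested, namely those with a read in 25% or more of the members or of the Itga1- cells. A gene was called higher when the log2 ratio of the mean CPM, with 1 CPM added to each mean, was at least 1 and at least 25% of members had a read, and lower in the mirrored case. Itga1 itself was left out. By these rules 130 genes (2.21% of those tested) were called higher in the Itga1+ cells and 330 (5.61%) lower, and the median log2 ratio of the tested genes was -0.13. These are sizes of difference with no test behind them. The balance of the calls rests on the scaling: with TMM factors, which centre the ratios on the bulk of the genes, 3.26% of the tested genes were higher and 4.15% lower, so that the higher ones were 44.04% of the calls and not 28.3%. Well rows A to H and I to P gave the same direction as all cells, also without the gene's highest cell, for all but 2 of the 130 and all but 2 of the 330 genes, and 61 and 160 of them were 2-fold apart in each set of rows alone. The row sets hold the same cells that made the calls, so a kept direction is no independent check.

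**Figure D2:**
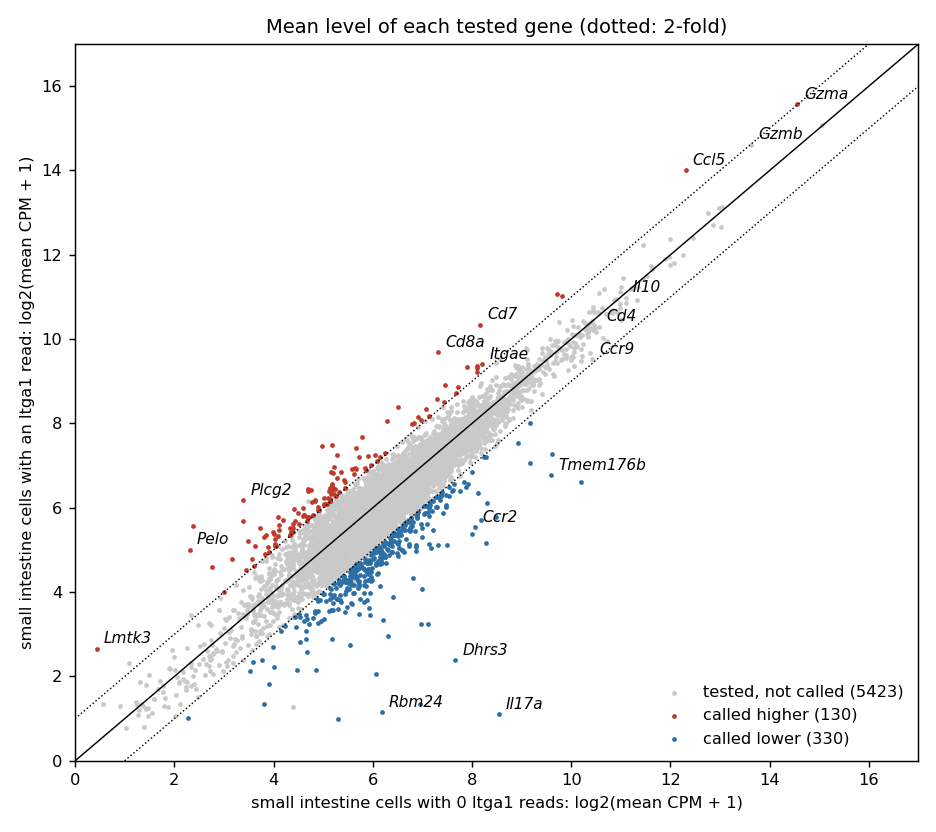
Mean level of each tested gene in Itga1- cells (horizontal) against Itga1+ cells (vertical), as log2(mean CPM + 1), with red points called higher, blue points called lower and dotted lines at 2-fold. Gzma and Ccl5 lie above the line of equality at the top of the range, and Il17a, Dhrs3 and Rbm24 lie far below it.

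Several of the genes with the largest ratios above the Itga1- cells were read in few cells. The uncharacterised gene 2900026A02Rik led with a mean of 46.6 against 4.19 CPM (log2 ratio 3.20) and a read in 26.5% against 2.17% of cells, but its ratio was 4.91 without its highest cell in each group and 1.35 with no limit on the reads of a cell. It passed the limit on cells with a read through the members alone, which partly sets its higher value. Plcg2, a phospholipase C used in receptor signalling, followed with 71.7 against 9.44 CPM (2.80), and Kansl1l had 50.6 against 9.4 CPM (2.31). Lmtk3, a kinase gene, was at 5.31 against 0.353 CPM (2.22), so low that a pseudocount of 10 CPM brought its ratio to 0.56. Pelo, which encodes a ribosome rescue factor, had a log2 ratio of 2.70, but it lies inside the Itga1 gene on the same strand in the annotation used here, so its reads and those that chose the members cannot be told apart.

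Surface receptors of the immunoglobulin type made up much of the rest of the top 10. Cd7, found on T and natural killer cells, ranged from 0 to 6766 CPM in the Itga1+ cells with a median of 569.03 and from 0 to 3520 with a median of 2.53 in the Itga1- cells. The means were 1293 and 284.7 CPM (log2 ratio 2.18), and 90.4% of members and 51.1% of Itga1- cells had a read, so the groups overlapped while most Itga1- cells were at or near 0. Cd200r1, an inhibitory receptor, had means of 177.4 and 35.2 CPM (2.30) and a read in 43.4% and 16.3% of cells. Cd200r1 passed the limit on cells with a read through the members alone, so a higher value is partly set by that limit. Its neighbour Cd200r4 had a log2 ratio of 1.96, and reads could be split between these similar paralogs.

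Cd244, a SLAM family receptor of natural killer and cytotoxic T cells, had means of 176.5 and 30.6 CPM (log2 ratio 2.49) with a read in 37 of 83 members and 11 of 92 Itga1- cells.

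Residency genes were described from a list of 20, of which 19 were in the table and 17 passed the limit on cells with a read. The members had 4 of the 17 called higher and none lower, beside 2.21% and 5.61% of all tested genes, with a median log2 ratio of 0.23 beside -0.13 over all tested genes. Of the 4, Cd244 and Nr4a2 passed the limit on cells with a read through the members alone. Their higher values are partly set by that limit. Itgae ranged from 0 to 2437 CPM in the Itga1+ cells (median 613) and from 0 to 2408 in the Itga1- cells (median 0). The ranges were alike and the difference lay in how many cells carried the gene: 85.5% of members (interval 76.1 to 92.3%) and 41.3% of Itga1- cells (31.1 to 52.1%) had a read, and means were 680 and 293.4 CPM (log2 ratio 1.21). In the p2 spleen Itgae averaged 4.15 CPM.

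Gpr34, a receptor for lysophosphatidylserine, averaged 335.8 CPM in the Itga1+ and 89.9 CPM in the Itga1- cells (log2 ratio 1.89) and 1.32 CPM in the p2 spleen. Nr4a2, a nuclear receptor induced by T cell receptor signalling, averaged 121.1 and 46.6 CPM (1.36), with a read in 49.4% and 22.8% of cells. The members called higher in this list thus were an integrin, 2 receptors and a transcription factor, while several classic residency genes were alike.

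Cd69 averaged 887 CPM in the Itga1+ and 681 CPM in the Itga1- cells (log2 ratio 0.38), and the chemokine receptor gene Cxcr6 1140 and 1297 CPM (-0.19). Rgs1, a brake on chemokine receptor signalling, had a read in every cell of both groups, with means of 8135 and 6946 CPM. The transcription factor genes Runx3 (0.23), Prdm1 (0.29) and Bhlhe40 (-0.34) were not called either. In the p2 spleen Rgs1 averaged 687 CPM and Cxcr6 570.9 CPM, below both groups of small intestine cells. Ahr, the aryl hydrocarbon receptor gene needed by intraepithelial T cells, was lower without passing 2-fold, at 118.5 against 208.4 CPM (-0.81).

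Of the integrin list, 7 of 14 genes were tested, 1 was called higher (Itgae) and 1 lower, beside 2.21% and 5.61% of all tested genes. Itgb1, the partner of alpha 1, had a read in 17 of 83 Itga1+ cells (20.5%) and 16 of 92 Itga1- cells (17.4%), below the limit for a call, and in 54.2% of p2 spleen cells. Most cells with Itga1 RNA thus had no detected RNA of the beta chain at this depth, which is no statement about the protein. Itgb7, the partner of Itgae, had a read in 97.6% and 96.7% of cells with means of 986 and 837 CPM (log2 ratio 0.24). Itga2, whose product CD49b pairs with beta 1 as well and is used as a marker of IL-10-producing Tr1 cells, had a read in 21.7% and 13.04% of cells. Itgb3, integrin beta 3, was the gene called lower, with means of 65.4 and 139.1 CPM (-1.08), a value that came under 2-fold with TMM factors (-0.95).

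Cytotoxic genes gave 7 of 16 tested called higher and none lower, beside 2.21% and 5.61% of all tested genes, with a median log2 ratio of 0.97 beside -0.13. Gzma ran from 4.76 to 243311 CPM in the Itga1+ cells with a median of 45916, and from 6.84 to 109831 CPM in the Itga1- cells with a median of 12762. The ranges overlap almost fully, and the difference is in the share of cells in the high band: 79 of 83 Itga1+ cells (95.2%, interval 88.1 to 98.7%) and 55 of 92 Itga1- cells (59.8%, interval 49.04 to 69.9%) were at 1000 CPM or more, a limit set after the values were seen. Within the high band the medians were 46257 and 39005 CPM. The 37 Itga1- cells below it had a median of 25.01 CPM, and the p2 spleen cells below it 5.33 CPM, so a read of Gzma alone does not mark a cell as expressing it here.

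Gzmb, granzyme B, behaved alike, with means of 25080 and 12597 CPM. Its log2 ratio of 0.99 fell short of a call and came to 1.12 with TMM factors, while that of Gzma moved from 1.02 to 1.15. At 1000 CPM or more, Gzmb was found in 80 of 83 Itga1+ cells, 68 of 92 Itga1- cells and 41 p2 spleen cells (22.9%).

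Perforin, the pore former that lets granzymes into a target cell, is encoded by Prf1, which had a median of 169.4 CPM in the Itga1+ and of 0 in the Itga1- cells, with a log2 ratio of the means of 1.28. A Prf1 read was found in 67.5% of members (interval 56.3 to 77.4%) and 34.8% of Itga1- cells (25.1 to 45.4%). Granzyme K (Gzmk) had means of 481.9 and 175.2 CPM (1.45) and the protease cathepsin W (Ctsw) 642 and 238.1 CPM (1.43). Serpinb9, the inhibitor that shields a cell from its own granzyme B, had means of 2092 and 905 CPM (1.21). Slamf7, a surface receptor of cytotoxic lymphocytes, was read in 77.1% and 33.7% of cells (1.19), and Tbx21, the gene of the transcription factor T-bet, in 55.4% and 35.9% (1.05). Fasl (-0.30) and Srgn (-0.25), which encodes the granule proteoglycan serglycin, were not among the genes called. Eomes, the other T-box factor of cytotoxic cells, had a read in 2 cells of each group.

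Of the natural killer receptor list 3 of 15 genes were tested and 2 called higher (Klrd1 and Cd244), beside 2.21% of all tested genes. Both passed the limit on cells with a read through the members alone, so a higher value is partly set by that limit. Klrd1 (CD94) was called higher, with means of 205.4 and 54.4 CPM (log2 ratio 1.90) and a read in 36.1% and 15.2% of cells, but its ratio was 0.65 in well rows A to H and 5.55 in rows I to P. Cd160, a receptor found on gut T cells, had means of 336.5 and 188.9 CPM (0.83) and a read in 59.04% and 32.6% of cells. Untested genes of the list were read in few cells: Klrc1 in 13 members and 7 Itga1- cells, with means of 37.2 and 14.4 CPM (1.31), Klrk1 in 4 and 0, Klre1 in 4 and 1, and Fcer1g in 2 and 1. Klrg1 was read in 1 of 83 members, and Ncr1 and the 2 Klra genes in none, which allows a share of up to 3.61%.

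Of the chemokine and growth factor ligand genes, 3 of 6 tested were called higher and 1 lower, beside 2.21% and 5.61% of all tested genes. Ccl5 ranged from 53.1 to 53383 CPM in the Itga1+ cells with a median of 13061, and from 0 to 48844 CPM in the Itga1- cells with a median of 330. As with Gzma, the Itga1- cells fell into a high and a low band, and 95.2% of members and 46.7% of Itga1- cells were at 1000 CPM or more (log2 ratio of the means 1.70). Ccl4 (1.34) and Ccl3 (1.23), which attract cells through the same group of receptors, were called higher too, with means of 2137 against 843 CPM and 282.3 against 120 CPM. With membership taken after thinning, Ccl3 was at 0.14, so its value rests on few cells. Areg, which encodes the tissue repair factor amphiregulin, was lower, with means of 132.9 and 573.2 CPM (-2.10).

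Of 11 tested CD4 and CD8 lineage genes 1 was called higher, Cd8a, and none lower, beside 2.21% and 5.61% of all tested genes. Cd8a passed the limit on cells with a read through the members alone. Cd4 ranged from 95.1 to 5347 CPM in the Itga1+ cells (median 1114) and from 15.5 to 4669 CPM in the Itga1- cells (median 1302), a log2 ratio of -0.27. Cd8a, the CD8 alpha chain that intraepithelial T cells can carry as a homodimer, had a read in 36 of 83 members (43.4%, interval 32.5 to 54.7%) and 17 of 92 Itga1- cells (18.48%, interval 11.1 to 27.9%). The mean levels were 825 and 157.8 CPM (2.38), and 10 or more Cd8a reads were found in 27 and 7 cells. In the p2 spleen no cell had 10 Cd8a reads and the highest value was 5.18 CPM. Among cells with a Cd8a read, the median was 1776 CPM in members but 6.05 CPM in Itga1- cells. Some cells counted by a single read, in both groups, thus lay at the level of stray reads in the spleen. Cd8b1, the beta chain of the CD8 heterodimer, had a read in 13 members and 6 Itga1- cells, too few for a call, with means of 115.3 and 7.71 CPM (3.74, or 0.56 without cells with a Cd8a read). Zbtb7b, the gene of the CD4 lineage factor ThPOK, averaged 19.2 and 30.3 CPM (-0.63) and was read in 24.1% and 35.9% of cells, beside 54.2% in the p2 spleen.

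The Th17 list was the one that lay lower as a group: 6 of 8 tested genes were called lower, beside 5.61% of all tested genes, and none higher, with a median log2 ratio of -2.77. All 6 passed the limit on cells with a read through the Itga1- cells alone, so a lower value in the members is partly set by that limit. Il17a ranged from 0 to 69.8 CPM in the Itga1+ cells and from 0 to 7099 CPM in the Itga1- cells, with medians of 0. It had a read in 7 of 83 members and 35 of 92 Itga1- cells, and 10 or more reads in 1 and 32 cells. The log2 ratio of the means, 1.14 and 371.7 CPM, was -7.44, the largest of all genes called lower. Il17f was low in all but 1 member at 7946 CPM, and its means were 96.02 and 1179 CPM (-3.60).

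Receptor genes of Th17 cells followed the cytokines. Il1r1, the interleukin-1 receptor, had a read in 7.23% of members and 42.4% of Itga1- cells (log2 ratio -2.37). Tmem176b and Tmem176a, membrane protein genes typical of Th17 cells, had log2 ratios of -2.82 and -2.71. Il23r, the interleukin-23 receptor, was read in 4 members and 19 Itga1- cells and so fell short of the limit for a call. Rora, a nuclear receptor gene that other T cells also use, averaged 192.7 and 339.5 CPM (-0.81).

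Genes outside the list with the largest ratios below the Itga1- cells were Dhrs3, a retinaldehyde reductase (-5.27), Rbm24, an RNA-binding protein (-5.03), and Plcb4, a phospholipase (-4.32). Dhrs3 and Rbm24 had a read in 1 member each, and in 44 and 30 of the 92 Itga1- cells. The carboxypeptidase gene Cpm (-4.01), the syndecan gene Sdc4 (-3.71) and the water and glycerol channel gene Aqp3 (-3.34) were also among the largest. These 6 genes were read in at most 10.8% of members, and so were tested only because of the Itga1- cells.

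Chemoattractant receptors differed within their own list, with 1 of 10 tested genes called higher (Gpr34) and 4 lower, beside 2.21% and 5.61% of all tested genes. The leukotriene B4 receptor gene Ltb4r1 had means of 8.45 and 137.5 CPM (log2 ratio -3.87), Ccr1 35.01 and 308.4 CPM (-3.10), and Ccr2, a receptor for inflammatory monocyte chemokines, 45.6 and 267.1 CPM (-2.53). Ltb4r1 and Ccr2 passed the limit on cells with a read through the Itga1- cells alone. Their lower values are partly set by that limit. Gpr183, the oxysterol receptor that positions lymphocytes near gut lymphoid follicles, was read in 28.9% and 57.6% of cells (-2.19). Ccr9, whose ligand is made by the small intestinal epithelium, ranged from 0 to 5261 CPM in the Itga1+ cells (median 552.9) and from 0 to 7011 CPM in the Itga1- cells (median 1031). With a log2 ratio of -0.89 it was not called, but 80.7% of members (interval 70.6 to 88.6%) and 96.7% of Itga1- cells (90.8 to 99.3%) had a read. Gpr18 lay the other way, with a read in 91.6% and 64.1% of cells and a log2 ratio of 0.97.

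Of 16 egress and central memory genes only 3 (Il7r, S1pr4 and Satb1) had a read in enough small intestine cells to be tested. None was called, beside 2.21% called higher and 5.61% lower over all tested genes. S1pr1, the receptor for the lipid that draws T cells out of tissue, averaged 2.55 CPM in the Itga1+ cells, 3.13 CPM in the Itga1- cells and 470 CPM in the p2 spleen. Its activator Klf2 averaged 4.93, 9.16 and 157.1 CPM, the lymph node homing receptor gene Ccr7 0.249, 1.34 and 497.9 CPM, and the memory factor gene Tcf7 2.84, 1.41 and 662 CPM. These 4 genes were low in small intestine cells with and without Itga1 RNA. S1pr4, another receptor of the same lipid, was read in 63.9% of members and 48.9% of Itga1- cells (log2 ratio 0.46), and Satb1, a chromatin organiser, in 78.3% and 85.9% (-0.31). Il7r, the interleukin-7 receptor that supports memory cells, was read in 36.1% and 35.9% of cells (log2 ratio 0.38).

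Il10, the gene behind the sort, ranged from 0 to 9691 CPM in the Itga1+ cells (median 1320) and from 0 to 10333 CPM in the Itga1- cells (median 1478). The groups overlapped over the whole range (log2 ratio -0.12). None of 11 tested genes on the list of Il10 and its regulators was called, beside 2.21% higher and 5.61% lower of all tested genes. Maf, a driver of Il10 in T cells, averaged 533.1 and 534.7 CPM, and Batf 434.6 and 612 CPM (-0.49). Th1 genes had 1 of 8 tested called higher, Tbx21, beside 2.21% of all tested genes, while Ifng, interferon gamma, averaged 643 and 470 CPM (0.45).

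On the list of co-inhibitory and costimulatory receptors only the SLAM receptor already given was called. Cd160, described above and also on this list, was higher short of a call (0.83), and the costimulatory receptor gene Tnfrsf4 was at -0.70. Of 13 tested genes 1 was called higher and none lower, beside 2.21% and 5.61% of all tested genes. The gene called, Cd244, passed the limit on cells with a read through the members alone. The median log2 ratio was 0.07. Lag3 averaged 1749 and 1395 CPM (0.33), Pdcd1 345.5 and 329.03 CPM (0.07), Havcr2 307.004 and 287.4 CPM (0.10), Tigit 1121 and 1272 CPM (-0.18) and Ctla4 6422 and 8331 CPM (-0.38). Foxp3, the regulatory T cell factor, had a read in 2 members, neither with 10 reads, and in 13 Itga1- cells, 8 of them with 10 or more. Il2ra, the interleukin-2 receptor chain CD25, was the 1 of 4 tested regulatory T cell genes called lower, beside 5.61% of all tested genes. Its means were 57.99 and 168.996 CPM (-1.53).

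For each list in this paragraph, the shares over all tested genes were 2.21% called higher and 5.61% called lower. Of 10 tested genes on the TGF-beta list, 1 was called higher, again Itgae, which TGF-beta is known to induce. Tgfbr2, the receptor chain that binds the ligand, averaged 316.7 and 230.8 CPM (log2 ratio 0.45), and the feedback inhibitor Smad7 was read in 53.01% and 26.1% of cells (0.73). Among 12 tested immediate early genes Nr4a2 was called higher and Jun lower (-1.06, or -0.93 with TMM factors), and Fos (-0.37), Junb (-0.22) and Nr4a1 (-0.27) were not called. Nr4a2 passed the limit on cells with a read through the members alone. In the heat shock list 1 of 5 tested genes was called, the mitochondrial chaperonin Hspd1 (-1.20). Cell cycle genes gave 2 of 12 called lower, the replication helicase genes Mcm2 (-1.05) and Mcm3 (-1.68), with Mcm2 past 2-fold in only 9 of 21 alternatives and at -0.92 with TMM factors, while the proliferation gene Mki67 had a read in 48.2% of members and 46.7% of Itga1- cells (0.05).

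**Figure D3:**
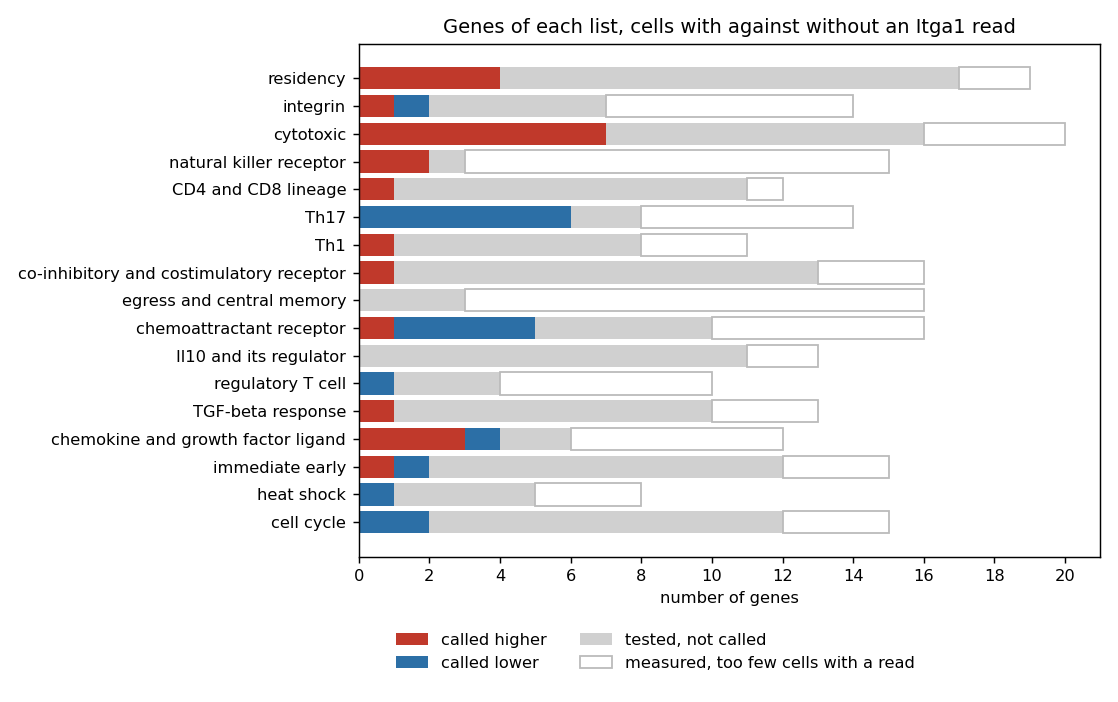
Number of genes in each list that were called higher in Itga1+ cells (red), called lower (blue), tested and not called (grey), or measured in too few cells to be tested (white). The cytotoxic list has the most genes called higher, 7, and the Th17 list the most called lower, 6.

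The number of Itga1 reads was set against the other genes, in classes of 0, 1 to 9, 10 to 99 and 100 or more reads. Itgae had a read in 41.3%, 84.6%, 86.5% and 84.8% of cells in these classes. By this share members with few Itga1 reads resembled those with many, but by level they were lower. Mean Itgae was 293.4, 344.1, 840.6 and 632 CPM in these classes, and the median was 0, 242.3, 922 and 604.2 CPM. The share of cells with a read went from 38.04% to 15.4%, 5.41% and 9.09% for Il17a. For Tmem176b it went from 54.3% to 23.1%, 21.6% and 15.2%. Other genes were seen mainly in the classes with 10 or more reads. Klrd1 was read in 15.2% and 7.69% of cells in the lower classes and 48.6% and 33.3% in the higher ones, and Cd8a in 18.48%, 23.1%, 56.8% and 36.4%. The class of 1 to 9 reads holds 13 cells, and its intervals are wide.

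**Figure D4:**
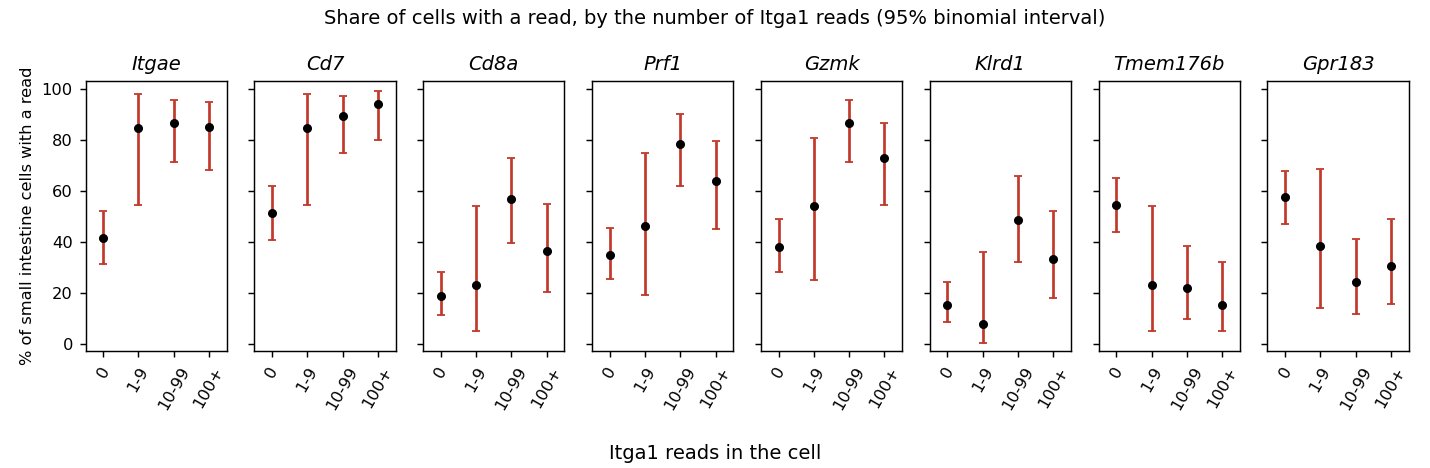
Share of small intestine cells with a read of each of 8 genes (vertical, in percent), by the number of Itga1 reads in the cell, with 95% exact binomial intervals over 92, 13, 37 and 33 cells. Itgae and Cd7 are higher in every class of Itga1+ cells than at 0 reads, and Tmem176b and Gpr183 are lower in every class.

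Cells with Cd8a were a part of the members and not all of them. The split used here counts a single Cd8a read, so some of the 36 lay at the level of stray spleen reads. The 36 members with a Cd8a read and the 47 without one had like means of Gzma, 50307 and 47112 CPM, of Gzmb, 24764 and 25323 CPM, and of Cd4, 1360 and 1182 CPM. They differed in Cd7, with means of 2041 and 720 CPM, in Cd160, with 583 and 147.6 CPM, and in Itgae, with 919 and 496.98 CPM. Itgae had a read in 35 of the 36 and in 36 of the 47. Going the other way, Cxcr6 averaged 721 and 1461 CPM, Serpinb9 1487 and 2555 CPM, and Il10 1588 and 2363 CPM. With all small intestine cells with a Cd8a read left out, Itgae was at a log2 ratio of 1.0003, Cd7 at 1.93, Prf1 at 1.88 and Gzma at 1.11, while Plcg2 fell to 0.23 and Cd160 to 0.06.

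Cells with Th17 genes were a part of the Itga1- group, and most of its cells with low Gzma were among them. An Il17a or Il17f read was found in 41 of 92 Itga1- cells (44.6%) and 13 of 83 members (15.7%), and 10 or more reads of either gene in 33 and 2 cells. Of the 37 Itga1- cells with Gzma below 1000 CPM, 24 had a read of these genes, and of the 55 above it 17 did. Mean Gzma was 10849 CPM in the 41 Itga1- cells with such a read, 34542 CPM in the 51 without, and 39480 CPM in the 13 members with one. In the 2 members with 10 or more reads of either gene it was 11706 CPM.

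Left without every cell holding a read of these genes, a set of cells chosen after seeing the data, 70 members and 51 Itga1- cells remained. Most cytotoxic differences then were smaller than 2-fold: the log2 ratio was 0.54 for Gzma, 0.48 for Gzmb, 0.73 for Prf1, 0.88 for Gzmk, 0.57 for Serpinb9, 0.82 for Slamf7 and 0.63 for Tbx21, while Ctsw was at 1.02. Itgae came to 0.87 and Ccl5 to 1.10, both still higher in the members. A 2-fold difference remained for Cd7 (2.01), Cd8a (1.74), Cd200r1 (1.85), Cd200r4 (2.11), Gpr34 (2.18) and Plcg2 (3.502). Among genes called lower, Dhrs3 (-6.03), Rbm24 (-5.20), Ltb4r1 (-5.98), Tmem176b (-2.90), Il1r1 (-2.61), Ccr2 (-1.90), Gpr183 (-1.81) and Areg (-1.26) remained at least 2-fold lower, while Il2ra came to -0.73, Mcm3 to -0.57 and Itgb3 to 0.047.

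**Figure D5:**
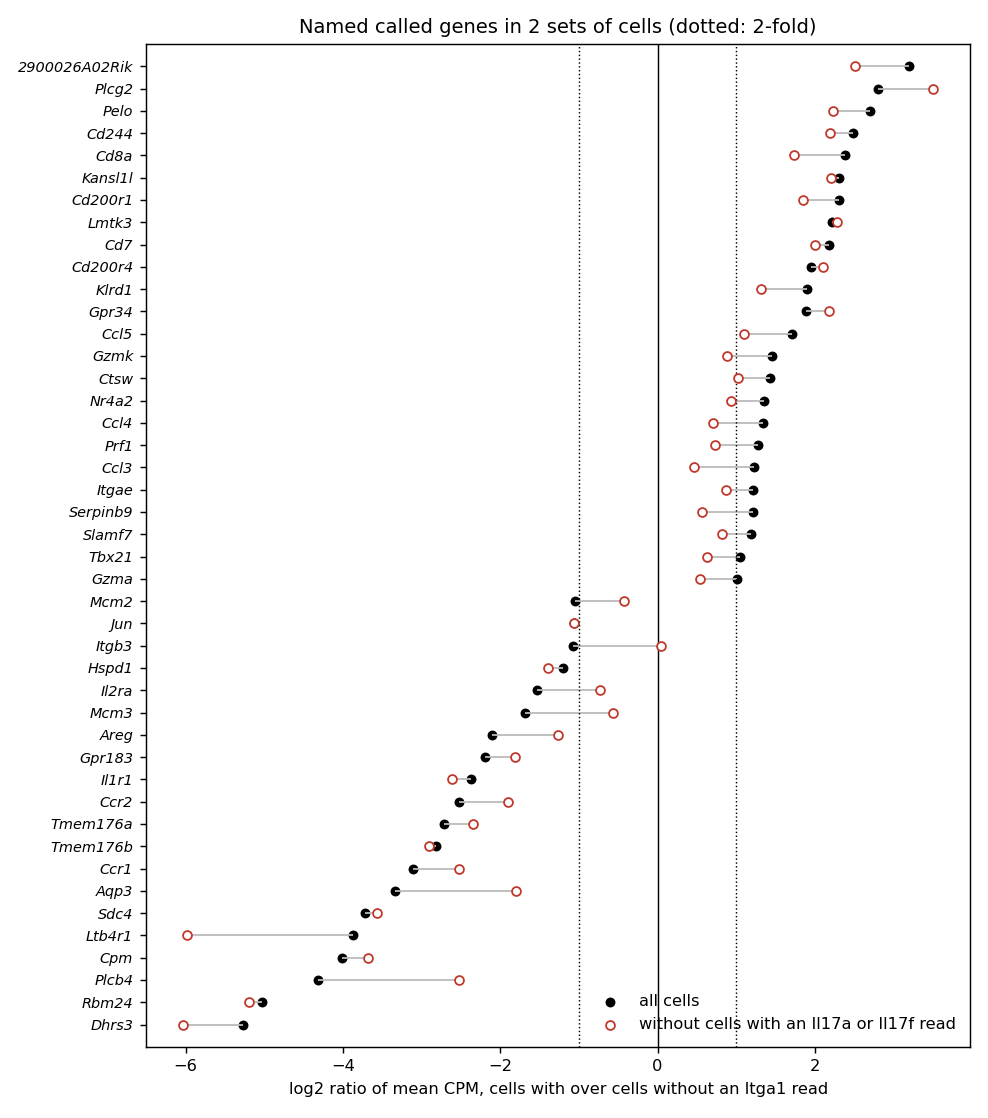
Log2 ratio of mean CPM, Itga1+ over Itga1- cells, for the named genes that were called, in all cells (black) and without cells holding an Il17a or Il17f read (open red), with dotted lines at 2-fold. The open points of the cytotoxic genes lie between 0 and 1 apart from Ctsw at 1.02, those of Cd7, Gpr34 and Plcg2 stay above 1, and those of Dhrs3 and Rbm24 stay below -5.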

How the data were processed

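Paired-end SMART-seq2 reads were aligned by the authors using STAR (2 passes), and raw read counts for each gene were deposited with 1 column for each cell. The submitters' processing notes name mm10 while the methods name Mm8, so no position is given, and the counting tool and annotation are not given in the sources used here. The deposited count tables held 23997 gene rows, 88 of them joint names of several genes, and a reporter row with 0.00979% of the reads, which was left out of totals. No 2 columns were identical. CPM was computed here for each cell, and each cell weighed the same in a mean. Cells were sorted singly, and no doublet caller was run.

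Cells with at least 160000 reads were kept. The members, gene lists and rules were chosen with earlier results of these data known. Genes named are the 10 largest ratios each way among called genes that kept their direction in both sets of well rows and without their highest cell, up to 4 called genes each way in each list, and well-known list members. Genes also named are those of summed values, thinned values and subsets of cells, chosen after their values were seen. A few genes of the lists and rules are not reported here and were left out of list counts. Lists missed 1 residency gene (Zfp683) and 6 of 8 gamma-delta genes in the table. Annotation for overlaps was GENCODE. The scripts ran in Python 3.11.15 with numpy 2.4.6, scipy 1.17.1 and pandas 2.3.3, and were tested on simulated data. Alternatives used thinning, other pseudocounts and filters, TMM (edgeR 4.0.16), DESeq2 1.42.0 and scran 1.30.0 scaling factors in R 4.3.3, well positions and subsets of cells. No count model was fitted.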

Additional observations from a re-analysis of the deposited data

Results flagged for a closer look

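Itga1 reads were also present outside the cells compared. In the spleen, 6 cells (1.05%, interval 0.385 to 2.26%) had an Itga1 read and 5 (0.871%) had 10 or more. Of these 6 cells, 4 were on plate p1 and 2 on p2, with 1 to 74 Itga1 reads each. All 6 had Il10 reads, 5 had Gzmb reads and 3 Gzma reads, while Cd8a, Ccr9, Ccr7 and Foxp3 had none and Itgae had 1 read in 1 cell. In small intestine cells below the read limit, 4 of 15 (26.7%, interval 7.79 to 55.1%) had an Itga1 read.

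The reporter row was not used in the comparisons. An eGFP read was found in 66 of 83 Itga1+ cells (79.5%, interval 69.2 to 87.6%) and in 69 of 92 Itga1- cells (75%, interval 64.9 to 83.4%), although every cell was sorted on the reporter. The causes of these values were not tested.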

How the results depend on the processing

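In the main setting 2.21% of the tested genes were called higher and 5.61% lower. No paired analysis was possible because the labels name no animal and each tissue counts as 1 sample. The share of members stayed within its interval under all alternatives run. The 46 named called genes were reversed in none of 21 alternatives chosen at the start, genes used to leave cells out aside. These alternatives reuse the same cells, and the genes with the largest ratios were chosen for keeping their direction in some of them. The numbers of calls moved by over 1.5 times with a pseudocount of 10 CPM (1.31% higher, 3.18% lower), with a limit of 10% of cells (4.21% and 9.49%) and with no such limit (4.90% and 7.72% of all genes). They also moved in well rows A to H (5.26% and 11.6%), rows I to P (5.84% and 9.76%), columns 13 to 18 (5.93% and 9.19%) and columns 19 to 24 (5.21% and 11.7%), which hold fewer cells. Without cells with 10 or more Mki67 reads 4.46% were higher, and without cells with a Cd8a read 3.45% were higher and 10.2% lower. A pair of alternatives was added after the data were seen. Without cells with an Il17a or Il17f read 3.67% were higher, and Itgb3 (0.047) was reversed. Without members with 1 to 9 Itga1 reads and without Cd8a cells 3.86% were higher and 11.2% lower. The causes were not tested. Calls near the limit came under 2-fold in some of the 21 alternatives: Gzma held in 16, Itgae in 19, Tbx21 in 15, Itgb3 in 15, Jun in 12 and Mcm2 in 9. The intervals cover counting error only, since no animal is named and the cells of each tissue count as 1 sample.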
